A study of Mus musculus and Homo sapiens with 34 samples.

Results

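The ATP-binding cassette (ABC) transporter genes were followed in mouse and human lung adenocarcinoma cultures in which the transcription factor gene Hnf4a was deleted or induced, or which were treated with the inhibitors MRTX1133 or trametinib. The members were all gene rows of the 7 raw count tables whose symbol reads Abc, a letter from a to g and a digit, in upper or lower case, with Abca3 left out. This gave 99 of the 48431 genes listed, 43 in mouse and 56 in human, and 12 of the human rows were not protein coding. The choice used gene names and no measured value. Of these, 29 mouse members were listed in all 4 mouse tables and 42 human members in all 3 human tables.

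RNA was sequenced from 34 libraries in 17 groups of 2. The 3154 lung organoids carried p53frt, Rosa-FSF-CreERT2 and Hnf4aflox, among other alleles, and were given 2 mM 4-hydroxytamoxifen (4OHT), which activates CreERT2 and so deletes Hnf4a, or ethanol, for 2 days, with RNA taken 2 weeks later. In a second experiment the same organoids received 4OHT or ethanol with or without 3 nM MRTX1133, a small-molecule inhibitor, for 48 h. The 1027B lung organoids and the 3311 lung cell line carried p53frt and Rosa-FSF-CreERT2 together with Foxa1flox and Foxa2flox, among other alleles, in the controls as in the treated groups, and the labels used here name no agent that recombined the Foxa alleles. 1027B received 10 nM trametinib, a MEK inhibitor, or 20 nM MRTX1133 for 48 h, and 3311 received 50 nM trametinib for 48 h. The human lung adenocarcinoma lines H358 and H1651 received 20 nM trametinib for 48 h, and H1651 with a lentiviral HNF4A construct received 1 µg/mL doxycycline for 7 days or none. Each mouse culture is 1 line. Nothing in the labels says that the 2 libraries of a group came from separate cultures, so p-values measure the spread between these libraries, which may be technical.

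ABC transporters use the energy of ATP to move lipids, drugs, metabolites and conjugates across membranes. The A subfamily moves mainly lipids and retinoids, the B subfamily holds P-glycoprotein, bile transporters and transporters of mitochondria and other organelles, and the C subfamily exports glutathione and glucuronide conjugates and also holds the sulfonylurea receptors. The D subfamily brings fatty acyl-CoA into peroxisomes, the G subfamily exports cholesterol, plant sterols and drugs, and the E and F proteins have no membrane domain and act on ribosomes. In liver and intestine HNF4A, with the nuclear receptors PXR and FXR, is known as a regulator of drug and bile transporters.

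Library totals ran from 19692517 to 45284286 counts. Hnf4a fell in 3154 from 315 and 427 CPM (counts scaled to the size of each library) with ethanol to 53.5 and 68.0 CPM at 2 weeks after 4OHT, and HNF4A rose in H1651 from 47.1 and 35.9 to 94.4 and 96.8 CPM with doxycycline, so both checks went with the labels. All 6 lung epithelial markers were found in every group, with summed means of 3910 to 10400 CPM. Fibroblast markers summed to at most 1.40 CPM in 1027B and 3154, to 17.4 to 23.9 CPM in 3311, to 434 to 710 CPM in H1651, and to 45.6 CPM in untreated and 297 CPM in trametinib-treated H358. Leukocyte markers reached at most 31.7 CPM and endothelial markers at most 21.2 CPM in any group. In these bulk libraries fewer cells of a type and less RNA per cell cannot be told apart.

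In untreated mouse cultures the C subfamily and the ribosome-acting E and F members led the family when CPM were divided by exon length. In 1027B the highest were Abcc5, an exporter of cyclic nucleotides and other organic anions, at 55.1 and 64.9 CPM per kb, and Abcc3, a basolateral exporter of glucuronides and bile acids, at 46.4 and 65.7 CPM per kb. Abcc3 also led in 3154, at 79.1 and 103 CPM per kb in the ethanol group of the 2-week experiment. The 3311 cell line differed in its leading gene: Abcb1a, one of a pair of mouse genes for P-glycoprotein, stood at 197 and 233 CPM per kb there, against 4.67 and 4.14 in 1027B and 11.6 and 21.4 in the 2-week ethanol group of 3154. These levels come from separately normalized tables and were not tested against each other. At the other end, Abcg5 had no count in either 1027B vehicle library.

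Counts of members called are read against all genes, where called means an adjusted p under 0.05 in edgeR's quasi-likelihood test with Benjamini-Hochberg adjustment over all genes of the table. Unless stated, here and in the figures, the fit held no term for the replicate number. Deletion of Hnf4a called 7 of 31 tested members at 2 weeks, all lower, where 9.81% of all genes were called, 4.03% higher and 5.78% lower. At 48 h it called 11 of 29 without inhibitor, 6 higher and 5 lower, where 31.0% of all genes were called, 15.3% higher and 15.7% lower. Under MRTX1133 it called 11 of 29, 6 higher and 5 lower, where 27.7% were, 13.2% higher and 14.5% lower. Induction of HNF4A called 3 of 41, all higher, against 1.42% of all genes, 1.04% higher and 0.386% lower. Trametinib called 19 of 37 members in 3311, 15 higher and 4 lower, against 39.0% of all genes, 19.4% higher and 19.6% lower. In 1027B it called 9 of 28, 5 higher and 4 lower, against 26.7%, 13.5% higher and 13.2% lower. In H358 it called 15 of 34, 10 higher and 5 lower, against 46.8%, 23.5% higher and 23.2% lower, so that the members' share lay close to that of all genes. In H1651 it called none of 45 members and 0.00% of all genes. MRTX1133 called 4 of 28 members in 1027B, 3 higher and 1 lower, against 6.27% of all genes, 3.01% higher and 3.26% lower. In 3154 it called none of 29 members with ethanol, against 0.349% of all genes, and 1 of 29 with 4OHT, lower, against 4.64%, 2.10% higher and 2.54% lower. The median log2 change of the members was -0.27 at 2 weeks after deletion, 0.29 with trametinib in 3311 and 0.23 in H358, and between -0.05 and 0.14 in the other comparisons with a vehicle, while that of all genes lay between -0.01 and 0.02 throughout.

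**Figure D1:**
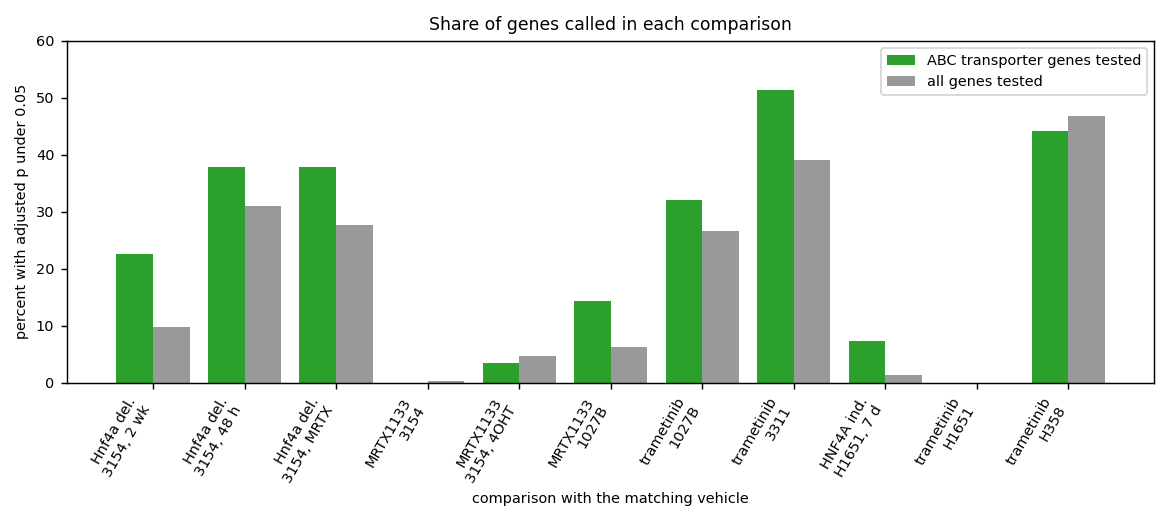
Percent of genes with an adjusted p under 0.05 in each comparison with the matching vehicle (x axis) for the ABC transporter genes tested (green bars) and for all genes tested (grey bars). The members' share was 22.6% against 9.81% at 2 weeks after Hnf4a deletion and 44.1% against 46.8% with trametinib in H358.

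**Figure D2:**
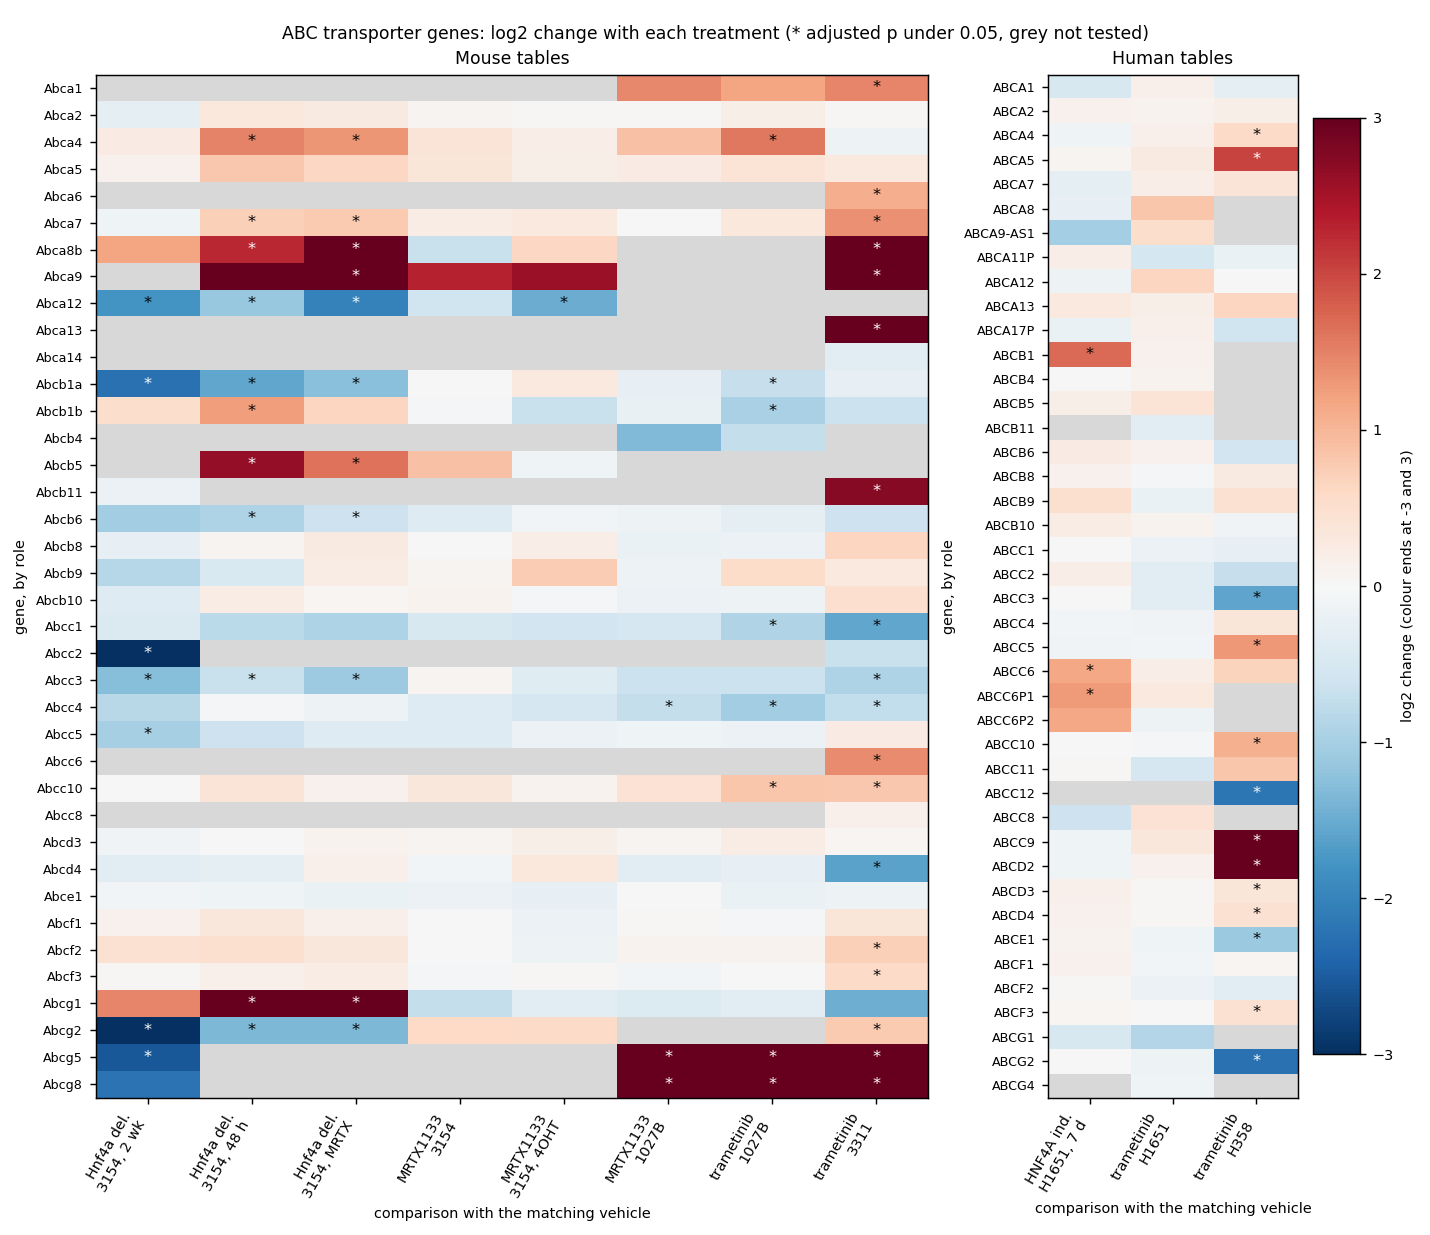
Log2 change of tested ABC transporter genes (rows, ordered by role) in each comparison with the matching vehicle (columns), for mouse and human tables, with red higher, blue lower, grey not tested and a star at adjusted p under 0.05. Abcg5 and Abcg8 were higher with both inhibitors in 1027B and with trametinib in 3311, and the H1651 trametinib column holds no star.

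At 2 weeks after Hnf4a deletion the members called lower were the drug, conjugate and sterol exporters Abcb1a, Abcg2, Abcg5, Abcc2, Abcc3 and Abcc5, and the lipid transporter Abca12. By role, 1 of 3 multidrug and bile B members, 3 of 6 conjugate exporters of the C subfamily, 2 of 4 G members and 1 of 6 A members were called lower, and none of the 5 organelle B, 3 D or 4 E and F members was called. Of all genes 5.78% were called lower. Leukocyte markers, with 2 of 6 at 0 or not listed, summed to 31.7 CPM with ethanol and 11.8 CPM after 4OHT, with 1 of 2 tested called lower. Endothelial markers, with 2 of 4 at 0 or not listed with ethanol and 1 of 4 after 4OHT, summed to 5.50 and 2.36 CPM, and the 1 tested was called lower. The part of either in these changes was not tested.

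Abcb1a had 63.5 and 117 CPM with ethanol and 16.2 and 21.7 CPM after 4OHT. Both deleted libraries lay below both controls, and the log2 change was -2.25 (SE 0.33, n = 2 and 2, edgeR adjusted p = 0.01777). Abcb1b, the paralogue, had 11.4 and 9.21 CPM with ethanol and 13.2 and 16.5 CPM after 4OHT, a log2 change of 0.52 that was not called (edgeR adjusted p = 0.1875). The pair lies side by side on chromosome 5 and is similar in sequence, so reads that fit both may have been lost or shared. An antisense gene covers 10.1% of the exon bases of Abcb1a, and the strand setting of the counting is not known. Abcg2, the breast cancer resistance protein that exports drugs and urate, had 7.98 and 36.5 CPM with ethanol and 1.48 and 1.799 CPM after 4OHT, a log2 change of -3.76 (SE 0.75, edgeR adjusted p = 0.03737). The groups did not overlap, but the controls were far apart, and the log2 change was -2.28 without ethanol replicate 2.

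The conjugate exporters followed. Abcc2, the canalicular exporter of bilirubin glucuronide, had 0.527 and 2.47 CPM with ethanol and 0.00 and 0.0375 CPM after 4OHT, which rest on 1 count after 4OHT (edgeR adjusted p = 0.04569). The ratio of the summed counts, scaled to library size, was 77.1 (exact 95% interval 13.4 to 3088, which covers counting error only). Without ethanol replicate 2 it was 30.1 (4.68 to 1264) and the call was lost (edgeR adjusted p = 0.05132), as it was without either 4OHT library (edgeR adjusted p = 0.1794 and 0.1076). Abcc3 was abundant and fell from 451 and 588 to 177 and 249 CPM, a log2 change of -1.29 (SE 0.22, edgeR adjusted p = 0.02528). Abcc5 fell from 398 and 540 to 211 and 262 CPM, a log2 change of -0.99 (SE 0.20, edgeR adjusted p = 0.03673). In all 3 genes each deleted library was below each control. Abcc4, an exporter of cyclic nucleotides and prostaglandins, and Abcc1, an exporter of glutathione conjugates, had log2 changes of -0.82 and -0.43 that were not called (edgeR adjusted p = 0.1286 and 0.1901).

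Abcg5 and Abcg8 together form the sterol exporter of liver and intestine, and both were low in these organoids. Abcg5 had 0.791 and 1.08 CPM with ethanol and 0.197 and 0.113 CPM after 4OHT (log2 change -2.53, edgeR adjusted p = 0.0403, and 0.05777 with DESeq2). Abcg8 had 0.692 and 0.629 CPM with ethanol and 0.164 and 0.113 CPM after 4OHT (log2 change -2.21, edgeR adjusted p = 0.05346), so it narrowly missed the threshold. Abca12, a lipid transporter of skin and alveolar cells, fell from 6.03 and 5.12 to 1.71 and 1.499 CPM (log2 change -1.80, edgeR adjusted p = 0.02226). Abcg1, a cholesterol exporter, had 2.64 and 11.2 CPM with ethanol and 9.42 and 28.4 CPM after 4OHT, with overlapping groups and no call (edgeR adjusted p = 0.2716). Abcb11, the bile salt export pump, stayed under 1 CPM in all 4 libraries, with a log2 change of -0.18.

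The calls at 2 weeks rested on both deleted libraries. Without 4OHT replicate 1 no member was called, without 4OHT replicate 2 there were 2, and without ethanol replicate 1 or 2 there were 9 or 6.

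At 48 h, with 4OHT or ethanol for the same time, Abcb1a, Abcg2, Abcc3, Abca12 and Abcb6 were called lower. Abcb1a had 29.4 and 32.3 CPM with ethanol and 9.59 and 11.5 CPM with 4OHT (log2 change -1.55, SE 0.19, edgeR adjusted p = 0.001097). Abcg2 had 7.07 and 6.88 CPM with ethanol and 2.20 and 3.35 CPM with 4OHT (log2 change -1.34, SE 0.25, edgeR adjusted p = 0.005962). Abcc3 had 346 and 290 CPM with ethanol and 208 and 194 CPM with 4OHT (log2 change -0.66, edgeR adjusted p = 0.02464). In each the 4OHT libraries lay below both controls. Abca12 was also lower (log2 change -1.14, edgeR adjusted p = 0.01366), as was Abcb6, a porphyrin transporter of organelles (10.7 and 9.90 to 5.76 and 5.13 CPM, log2 change -0.92, edgeR adjusted p = 0.006094). Exons of another annotated gene on the same strand cover 55.2% of the exon bases of Abcb6, so its counts are uncertain. Abcc5 had 599 and 256 CPM with ethanol and 283 and 277 CPM with 4OHT, with overlapping groups and no call (edgeR adjusted p = 0.2428).

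The 6 members that rose at 48 h were Abcg1, 3 A members and 2 multidrug and bile B members, and in each of these subfamily groups 1 other member fell. Of all genes 15.3% were called higher and 15.7% lower. Abcg1 had 2.48 and 2.56 CPM with ethanol and 23.6 and 32.5 CPM with 4OHT, a log2 change of 3.47 (SE 0.31, edgeR adjusted p = 0.0004045). Both 4OHT libraries were far above both controls. Abcb1b rose from 2.73 and 2.77 to 6.52 and 6.52 CPM (log2 change 1.24, edgeR adjusted p = 0.003801) while its paralogue Abcb1a fell. Also higher were Abca7, which acts in phospholipid efflux and phagocytosis (log2 change 0.71), the retinoid flippase Abca4 (1.49), Abca8b (2.26) and Abcb5, which had 3 and 2 counts in its controls and a ratio of summed counts of 6.44 (exact 95% interval 2.5 to 21.1). Abca8b had 0.463 and 0.168 CPM with ethanol and 1.25 and 1.83 CPM with 4OHT. In all 6 genes the groups did not overlap.

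Under MRTX1133 the deletion was compared in 4 further libraries, none of them used in the comparison above. Abcb1a had 26.1 and 35.2 CPM with ethanol and 13.5 and 12.4 CPM with 4OHT (log2 change -1.24, edgeR adjusted p = 0.002393). Abcg2 had 9.69 and 11.3 CPM with ethanol and 4.61 and 3.58 CPM with 4OHT (log2 change -1.36, edgeR adjusted p = 0.005073). Abcg1 had 1.26 and 1.81 CPM with ethanol and 16.9 and 28.0 CPM with 4OHT (log2 change 3.87, edgeR adjusted p = 0.0002983). All 3 were again without overlap. Abca12, Abcc3 and Abcb6 were lower, with log2 changes of -2.02, -1.10 and -0.63 (edgeR adjusted p = 0.002467, 0.003705 and 0.02937). Abca7, Abca4, Abca8b and Abcb5 were higher, with log2 changes of 0.78, 1.31, 3.56 and 1.62, and Abca9, with 1 count in its 2 controls, had a ratio of summed counts of 26.7 (exact 95% interval 4.41 to 1091). Abcb1b had a log2 change of 0.63 that was not called here (edgeR adjusted p = 0.05391). Abcb5 was not called with DESeq2 (adjusted p = 0.1224), nor Abcb6 with upper-quartile factors (edgeR adjusted p = 0.05387). Of 7 fibroblast markers 1 was tested and called higher (summed means 0.118 CPM with ethanol and 0.450 CPM with 4OHT). Its part in these changes was not tested.

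No member's deletion effect was called different with and without MRTX1133 (0 of 29 in the interaction test of edgeR, 0 at an unadjusted p under 0.05 and 0 with DESeq2, where 0.00% of all genes were called by edgeR). Nor was any called different between 48 h and 2 weeks (0 of 27, 4 at an unadjusted p under 0.05, 0 with DESeq2, and 0.0734% of all genes by edgeR). For Abcg1 the 48 h change exceeded the 2-week change by 2.00 on the log2 scale (SE 0.94, edgeR adjusted p = 0.4052). The 48 h counts also moved with single libraries: without 4OHT replicate 1 or 2 the deletion without inhibitor called 7 or 6 members, and without 4OHT-MRTX1133 replicate 2 the deletion under inhibitor called 5.

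**Figure D3:**
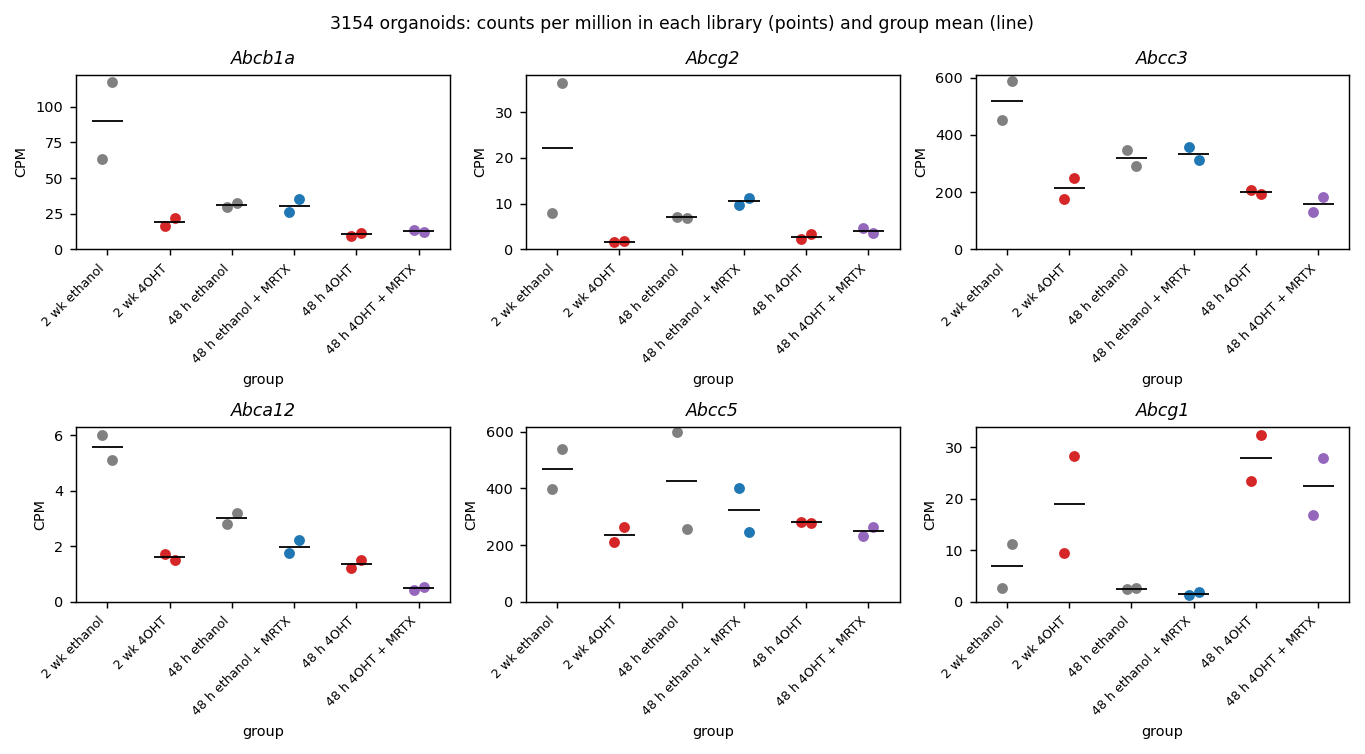
CPM of 6 ABC transporter genes in each library of 3154 organoids (points, with the group mean as a line), by group on the x axis, with linear y axes from 0. Abcb1a, Abcg2, Abcc3 and Abca12 were lower in both 4OHT libraries than in their ethanol controls in both experiments, while Abcg1 reached 23.6 and 32.5 CPM with 4OHT at 48 h against 2.48 and 2.56.

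In the fit of all groups MRTX1133 itself called few members in 3154. With ethanol none was called (2 of 29 at an unadjusted p under 0.05, 0 with DESeq2); Abcg2 had 7.07 and 6.88 CPM without and 9.69 and 11.3 CPM with inhibitor (log2 change 0.59, edgeR adjusted p = 0.3759). With 4OHT Abca12 alone was called, from 1.21 and 1.52 to 0.434 and 0.532 CPM (log2 change -1.48, SE 0.31, edgeR adjusted p = 0.03867). That call was lost with upper-quartile factors (edgeR adjusted p = 0.05011) and without any 1 of the 4 libraries. A fit on these 2 groups alone called 9 members, where 26.5% of all genes were called.

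Induction of HNF4A in H1651 raised 3 members. ABCB1, human P-glycoprotein, had 21.1 and 19.8 CPM without and 69.0 and 63.9 CPM with doxycycline, a log2 change of 1.70 (SE 0.09, edgeR adjusted p = 0.0007587). Both induced libraries were about the same and well above both controls. ABCC6, a liver transporter on which systemic pyrophosphate depends, had 10.7 and 8.74 CPM without and 24.2 and 18.9 CPM with doxycycline (log2 change 1.15, edgeR adjusted p = 0.0274). Its pseudogene ABCC6P1 had 4.21 and 4.05 CPM without and 9.47 and 10.7 CPM with doxycycline (log2 change 1.29, edgeR adjusted p = 0.01612). The 2 are near-identical copies, so which of them gave the reads is uncertain. Lung epithelial markers summed to 4460 CPM without and 5990 CPM with doxycycline, with 2 of 6 called higher, and fibroblast markers to 710 and 434 CPM, with 1 of 6 tested called lower. Their part in these changes was not tested.

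ABCG2, ABCC3 and ABCC2, whose mouse counterparts fell on deletion, were not called on induction in human. ABCG2 had 67.8 and 74.9 CPM without and 71.8 and 69.7 CPM with doxycycline, ABCC3 had 307 and 305 against 345 and 271 CPM, and ABCC2 had 254 and 246 against 308 and 265 CPM (log2 changes -0.01, 0.01 and 0.19, edgeR adjusted p = 0.9702, 0.9796 and 0.4248). ABCC1, ABCC4 and ABCB4, the phospholipid flippase of bile, had log2 changes of -0.01, -0.08 and 0.00. The cholesterol exporters ABCA1 and ABCG1 had log2 changes of -0.48 and -0.47, also not called (edgeR adjusted p = 0.2609 and 0.4575). Doxycycline was given only to the cells with the construct that it induces, so effects of the drug and of HNF4A cannot be told apart.

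Trametinib in 3311 raised the sterol exporter and 6 A members and lowered several C exporters. By role, 3 of 4 G members, 6 of 10 A members, 2 of 4 E and F members and 1 of 3 multidrug and bile B members were called higher, and of 7 C exporters 2 were higher and 3 lower. Of all genes 19.4% were called higher and 19.6% lower. None of the 5 organelle B members was called.

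Abcg5 had 0.855 and 3.27 CPM with vehicle and 23.9 and 39.9 CPM with trametinib, a log2 change of 3.96 (SE 0.56, edgeR adjusted p = 0.002589). Abcg8 had 0.446 and 3.07 CPM with vehicle and 25.1 and 44.8 CPM with trametinib, a log2 change of 4.33 (SE 0.70, edgeR adjusted p = 0.004198). For both genes the same libraries were high and low within each group, and the groups did not overlap. By their RefSeq starts the genes are neighbours on chromosome 17 that are read outward from a shared stretch, which is shown for that reason. In GENCODE M21 1 further transcript of Abcg8 starts inside Abcg5, at base 84676302, and exons of the other gene on the opposite strand cover 3.02% of the exon bases of Abcg5 and 2.19% of those of Abcg8. The strand setting of the counting is not given in the sources used here. It runs from the base after the start of Abcg5 (minus strand) to the base before that of Abcg8 (plus strand), at chr17:84683012-84683120 of GRCm38.p6, plus strand, from the RefSeq window of Abcg8 (250 bases before to 50 after its start), with matches to the GATA-type motif AGATAA, here as its complement TTATCT, in capitals.
Abcg5-Abcg8: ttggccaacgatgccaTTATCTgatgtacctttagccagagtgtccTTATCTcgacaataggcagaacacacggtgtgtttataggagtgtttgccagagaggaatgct
This stretch of 109 bases lies in no exon of GENCODE M21 and holds 2 matches. The motif, written after the windows had been read, was searched on both strands. It occurs in 11.2% of the 32851 mouse windows and in 5 of the 38 windows of the 31 listed mouse members with one. The windows of Abcg5 and Abcg8 overlap and share their matches, so the same bases are counted for both. The HNF4-type motif CAAAGTNCA, searched likewise, occurs in 1.41% of all windows and in those of Abcb1a and Abcd3. The RefSeq start of Abcb1a lies far upstream of the one in GENCODE M21, so its window may not be the promoter used here. A match is a description of letters, and no binding was measured.

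The A members that rose ranged from abundant to nearly silent. Abca1, which loads cholesterol onto apolipoproteins, had 83.9 and 95.6 CPM with vehicle and 302 and 197 CPM with trametinib (log2 change 1.48, edgeR adjusted p = 0.003023). Abca7 rose from 74.1 and 78.5 to 217 and 178 CPM (log2 change 1.37, edgeR adjusted p = 0.001164). Abca13 had no count in either vehicle library and 2.58 and 2.85 CPM with trametinib, at least 23.5-fold higher when the vehicle libraries are set at a floor of 3 counts each (edgeR adjusted p = 0.001243). The neighbours Abca8b, Abca9 and Abca6, which lie near each other on chromosome 11, also rose. Abca8b went from 6.24 and 9.002 to 61.6 and 59.1 CPM, Abca9 from 0.409 and 0.598 to 28.5 and 16.4 CPM and Abca6 from 7.58 and 16.1 to 24.1 and 26.6 CPM (log2 changes 2.99, 5.47 and 1.10, edgeR adjusted p = 0.0003798, 0.0004258 and 0.03787). Fibroblast markers summed to 23.9 CPM with vehicle, where 3 of 7 were at 0 or not listed, and to 17.4 CPM with trametinib, where 4 of 7 were. Of 3 tested 1 was called higher and 1 lower, and their part in these changes was not tested.

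Abcd4, a cobalamin transporter of lysosomes, fell from 52.2 and 43.5 to 14.2 and 17.04 CPM (log2 change -1.62, SE 0.18, edgeR adjusted p = 0.001173). Leukocyte markers, with 4 of 6 at 0 or not listed, summed to 12.6 CPM with vehicle and 25.2 CPM with trametinib, with 1 of 2 tested called higher and 1 lower. Lung epithelial markers summed to 8830 and 7220 CPM, with 1 of 6 called lower. The part of both lists in the changes in 3311 was not tested. Abcd3, a peroxisomal importer of branched-chain acyl-CoA, had 102 and 111 CPM with vehicle and 104 and 117 CPM with trametinib.

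Among the C exporters, Abcc1 fell from 114 and 125 to 37.5 and 43.9 CPM (log2 change -1.55, SE 0.15, edgeR adjusted p = 0.0007701). Abcc3 fell from 551 and 792 to 323 and 386 CPM, and Abcc4 from 39.3 and 40.0 to 21.1 and 26.3 CPM (log2 changes -0.92 and -0.74, edgeR adjusted p = 0.01412 and 0.01357). Abcc6 and Abcc10, a lysosomal and basolateral drug exporter, rose with log2 changes of 1.43 and 0.80 (edgeR adjusted p = 0.02682 and 0.04495). Abcg2 rose from 94.2 and 119 to 176 and 194 CPM (log2 change 0.79, edgeR adjusted p = 0.009136), and the ribosome-linked Abcf2 and Abcf3 had log2 changes of 0.71 and 0.57 (edgeR adjusted p = 0.007804 and 0.01573). Abcb11 rose within very low levels, from 0.0372 and 0.199 to 0.825 and 0.761 CPM (edgeR adjusted p = 0.02311, and 0.05875 with DESeq2). Abcb1a, the highest member, had 1078 and 1276 CPM with vehicle and 765 and 1230 CPM with trametinib, with overlapping groups and no call (edgeR adjusted p = 0.4751). Abcb1b, Abcc2 and Abcg1 had log2 changes of -0.66, -0.67 and -1.46 that were not called (edgeR adjusted p = 0.1342, 0.271 and 0.0783). Calls of Abcb11, Abcc4, Abcc6, Abcc10, Abcf2 and Abcf3 were lost without at least 1 of the 4 libraries.

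In 1027B both inhibitors raised Abcg5 and Abcg8 and lowered Abcc4, with the 2 comparisons sharing the vehicle libraries. Hnf4a itself was lower with both, from 446 and 471 CPM to 254 and 200 CPM with trametinib and 297 and 243 CPM with MRTX1133 (edgeR adjusted p = 0.005349 and 0.03747), and its part in the changes in 1027B was not tested. Lung epithelial markers summed to 9410 CPM with vehicle and 8260 CPM with trametinib, with 2 of 6 called higher and 1 lower, and leukocyte markers to 8.07 and 6.94 CPM, with 1 of 3 tested called higher and 1 lower. Their part was not tested either. Abcg5 had no count with vehicle, 13.5 and 3.45 CPM with trametinib and 2.64 and 1.70 CPM with MRTX1133. This is at least 55.0-fold higher with trametinib and at least 14.1-fold higher with MRTX1133 over the floor (edgeR adjusted p = 0.006668 and 0.04794), and without trametinib replicate 1 or 2 at least 22.4-fold or at least 87.7-fold higher with trametinib. Abcg8 had 0.0969 and 0.0542 CPM with vehicle, 14.3 and 3.92 CPM with trametinib and 4.16 and 2.34 CPM with MRTX1133, which against 3 vehicle counts gives ratios of summed counts of 121 (exact 95% interval 40.9 to 587) and 44.1 (14.8 to 216; edgeR adjusted p = 0.004396 and 0.03275). Without trametinib replicate 1 or 2 the first ratio was 51.1 or 187. In both genes replicate 1 was the higher library under each inhibitor, and every treated library was above every control.

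In the fit without a replicate term Abcd3 and Abcd4 were not called with either inhibitor. Their log2 changes were 0.22 and -0.26 for trametinib and 0.09 and -0.32 for MRTX1133. With the replicate number as a block Abcd3 was called higher with trametinib (blocked edgeR adjusted p = 0.02316). Abcc4 had 133 and 127 CPM with vehicle, 64.4 and 62.1 CPM with trametinib and 85.2 and 74.4 CPM with MRTX1133 (log2 changes -1.04 and -0.70, edgeR adjusted p = 0.001505 and 0.01702). The treated libraries were below the controls without overlap. Abcc1 had 207 and 229 CPM with vehicle, 102 and 132 CPM with trametinib and 148 and 159 CPM with MRTX1133 (log2 changes -0.89 and -0.51), and was called for trametinib (edgeR adjusted p = 0.006162) and not for MRTX1133 (0.08949). With the block it was called lower for MRTX1133 too (blocked edgeR adjusted p = 0.003606).

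The calls with trametinib also included Abca4 (4.07 and 2.71 to 9.66 and 10.7 CPM, log2 change 1.58) and Abcc10 (14.1 and 18.0 to 32.2 and 25.0 CPM, log2 change 0.83), both higher, and Abcb1a (25.6 and 22.7 to 14.2 and 15.7 CPM, log2 change -0.69) and Abcb1b (5.96 and 4.93 to 2.72 and 2.80 CPM, log2 change -0.98), both lower (edgeR adjusted p = 0.00598, 0.0203, 0.01917 and 0.02573). Leaving out 1 library lost the call of Abcb1b in each of 4 fits, of Abcb1a in 3 and of Abcc10 in 2. Abcc3 had log2 changes of -0.66 with trametinib and -0.65 with MRTX1133 that were not called (edgeR adjusted p = 0.05882 and 0.1237). With the replicate number as a block both were called lower (blocked edgeR adjusted p = 0.002323 and 0.004531). Abca1 had 0.581 and 1.35 CPM with vehicle, 2.98 and 1.35 CPM with trametinib and 1.67 and 3.59 CPM with MRTX1133, and was not called with either. Abcg1 and Abcb4 were not called either, with log2 changes of -0.31 and -0.70 for trametinib and -0.41 and -1.32 for MRTX1133. With the block Abcg1 was called lower with MRTX1133 (blocked edgeR adjusted p = 0.04708).

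The replicate numbers of 1027B paired its libraries, and a fit with the replicate number as a block called 9 of 28 members for MRTX1133 in place of 4, where the same fit called 24.1% of all genes, adding Abca4 and Abca5 (log2 changes 0.88 and 0.25) as higher and Abcc1, Abcc3 and Abcg1 (-0.50, -0.65 and -0.40) as lower (blocked edgeR adjusted p = 0.02946, 0.04810, 0.003606, 0.004531 and 0.04708). For trametinib the block called 13 of 28 members, where it called 44.9% of all genes, and added Abcc3, lower, and Abca5, Abca7 and Abcd3, higher (blocked edgeR adjusted p = 0.002323, 0.003284, 0.006814 and 0.02316). Without any 1 library of the comparison the unblocked fit called no member for MRTX1133. Direct comparison of MRTX1133 with trametinib called none of 28 members by edgeR (10 at an unadjusted p under 0.05, 0 with DESeq2, and 0.00% of all genes). With the block it called 5, where 14.1% of all genes were called, with Abcg5, Abcg8 and Abca7 lower and Abcc1 and Abcc4 higher with MRTX1133 (log2 differences -1.79, -1.34, -0.33, 0.40 and 0.33; blocked edgeR adjusted p = 0.01916, 0.01951, 0.01960, 0.01751 and 0.02376). The doses were 20 nM and 10 nM.

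**Figure D4:**
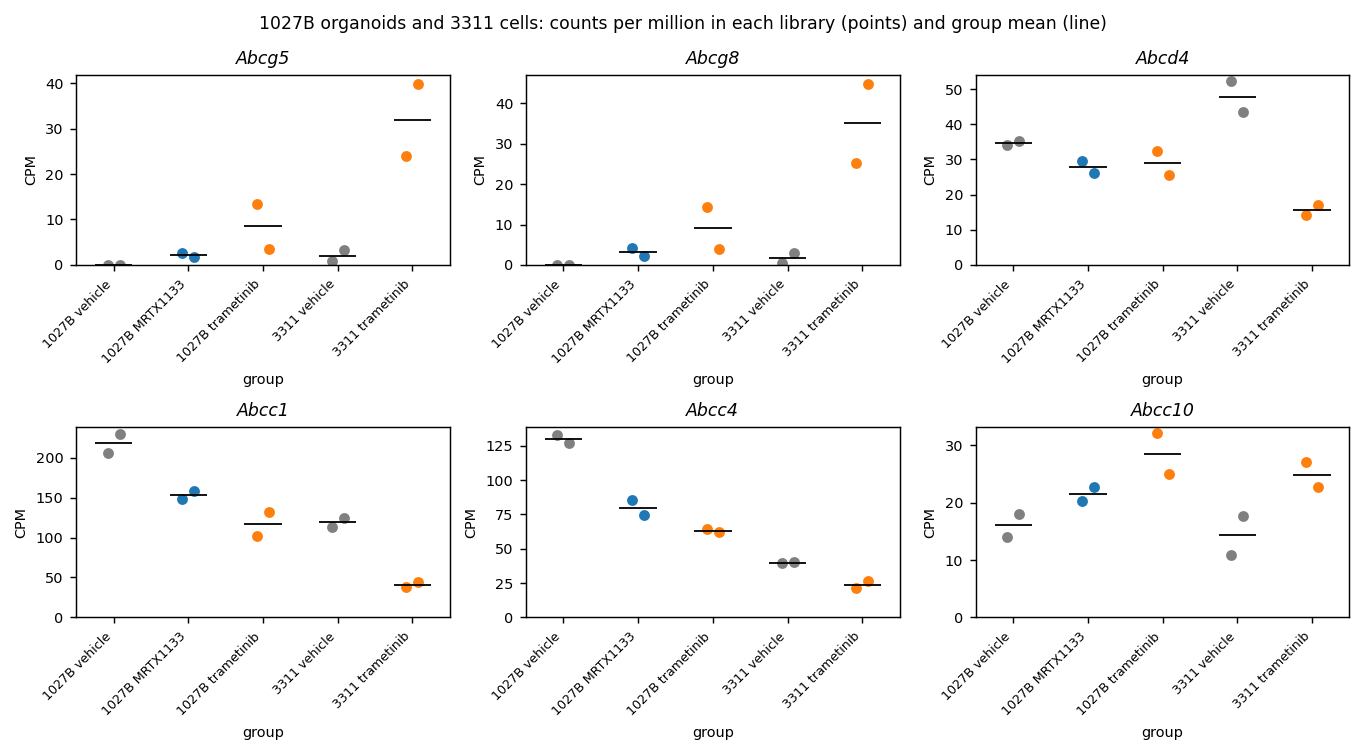
CPM of 6 ABC transporter genes in each library of 1027B organoids and 3311 cells (points, with the group mean as a line), by group on the x axis, with linear y axes from 0. Abcg5 and Abcg8 went from near 0 in the vehicle groups to 23.9 and 39.9 CPM and 25.1 and 44.8 CPM with trametinib in 3311, and Abcc1 and Abcc4 were lower in every trametinib library than in its controls.

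The trametinib responses of 1027B and 3311, at different doses, were called different for 3 of 34 members, where 12.3% of all genes were (6.38% higher and 5.91% lower), and for 6 members without 3311 vehicle replicate 2. Abca7 rose less in 1027B (log2 difference 1027B minus 3311 of -1.03, SE 0.18, edgeR adjusted p = 0.01065), and Abcd4 fell less (1.38, SE 0.25, edgeR adjusted p = 0.01112). The sterol exporter pair was not called different (edgeR adjusted p = 0.1738 for Abcg5 and 0.3978 for Abcg8).

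In H358 trametinib raised ABCD2, ABCD3 and ABCD4 and lowered ABCG2 and ABCE1, and of 9 conjugate exporters of the C subfamily ABCC5 and ABCC10 were higher and ABCC3 and ABCC12 lower. Of all genes 23.5% were called higher and 23.2% lower. ABCD2, a peroxisomal fatty acyl-CoA importer, had 0.155 and 0.239 CPM with vehicle and 1.48 and 1.96 CPM with trametinib (log2 change 3.10, SE 0.39, edgeR adjusted p = 0.0004801). ABCD3 and ABCD4 had log2 changes of 0.37 and 0.45 (edgeR adjusted p = 0.01518 and 0.01856). The treated libraries were above the controls for each of the 3. ABCD3 and ABCD4 lost the call without either of 2 libraries each.

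ABCC5 had 28.3 and 22.6 CPM with vehicle and 58.8 and 65.8 CPM with trametinib (log2 change 1.29, SE 0.14, edgeR adjusted p = 0.0002465). ABCC10 had 23.5 and 21.5 CPM with vehicle and 47.3 and 47.8 CPM with trametinib (log2 change 1.08, SE 0.12, edgeR adjusted p = 0.0002468). ABCC9, the SUR2 subunit of potassium channels, had 1 count in 1 vehicle library and 0.365 and 0.510 CPM with trametinib, a ratio of summed counts of 30 (exact 95% interval 4.99 to 1226, edgeR adjusted p = 0.002331). It remained under 1 CPM in each library. ABCA5 rose from 3.37 and 2.81 to 14.9 and 10.3 CPM (log2 change 2.03, edgeR adjusted p = 0.0002861). ABCA4 and ABCF3 had log2 changes of 0.58 and 0.45 (edgeR adjusted p = 0.02998 and 0.01454). Without 1 library the call of ABCA4 was lost in 3 of 4 fits and that of ABCF3 in 1.

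ABCG2 fell from 6.22 and 4.81 to 1.05 and 1.33 CPM (log2 change -2.23, SE 0.26, edgeR adjusted p = 0.0003352), where Abcg2 in 3311 had risen. ABCC3 fell from 53.8 and 31.4 to 16.6 and 11.7 CPM (log2 change -1.58, SE 0.26, edgeR adjusted p = 0.001773). ABCE1, which recycles ribosomes, fell from 257 and 275 to 101 and 146 CPM (log2 change -1.11, SE 0.17, edgeR adjusted p = 0.001116). ABCC12 also fell, all under 1 CPM (edgeR adjusted p = 0.0111, and 0.1116 with DESeq2). ABCC1, ABCC2, ABCC4 and ABCA1 were not called, with log2 changes of -0.24, -0.69, 0.35 and -0.27. ABCB1, ABCB4, ABCB11 and ABCG1 were among 19 members that did not pass the count filter in H358, where no such gene had more than 15 counts in a library. Fibroblast markers rose with trametinib in H358, 4 of 6 tested being called higher and 2 of 7 having no count in the vehicle group. Lung epithelial markers summed to 5560 CPM with vehicle and 3910 CPM with trametinib, with 2 of 6 called higher and 3 lower. Endothelial markers summed to 13.3 and 21.2 CPM, with 1 of 4 called higher, and leukocyte markers to 1.82 and 2.01 CPM, with 1 of 4 tested called higher. The part of these lists in the changes was not tested.

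In H1651 trametinib called no member (1 of 45 at an unadjusted p under 0.05, 0 with DESeq2) and no gene at all by edgeR (597 at an unadjusted p under 0.05). ABCB1 had 16.2 and 11.1 CPM with vehicle and 16.2 and 13.8 CPM with trametinib, ABCG2 had 54.6 and 74.3 against 48.1 and 68.1 CPM, and ABCC3 had 351 and 279 against 308 and 199 CPM. Replicate 1 and replicate 2 were offset in the same direction in both groups for these 3 genes. Across genes, same-numbered libraries of both groups deviated together (correlation 0.623), but the pairing was not established. A fit with the replicate number as a block did call members in H1651, as counted in the closing section. The absence of calls therefore depends on the fit. ABCC1, ABCC2, ABCC4, ABCA1, ABCG1, ABCB4 and ABCB11 had log2 changes of -0.17, -0.35, -0.10, 0.16, -0.89, 0.10 and -0.34. The 2 lines were called different for 7 of 46 members, where 19.3% of all genes were (9.43% higher and 9.86% lower): ABCC9, ABCD2, ABCA5, ABCC5 and ABCC10 changed upward in H358 relative to H1651 (log2 differences 4.30, 3.01, 1.78, 1.40 and 1.13), and ABCG2 and ABCE1 downward (-2.06 and -0.96). ABCD3 and ABCD4 were not called different (edgeR adjusted p = 0.08416 and 0.1147).

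**Figure D5:**
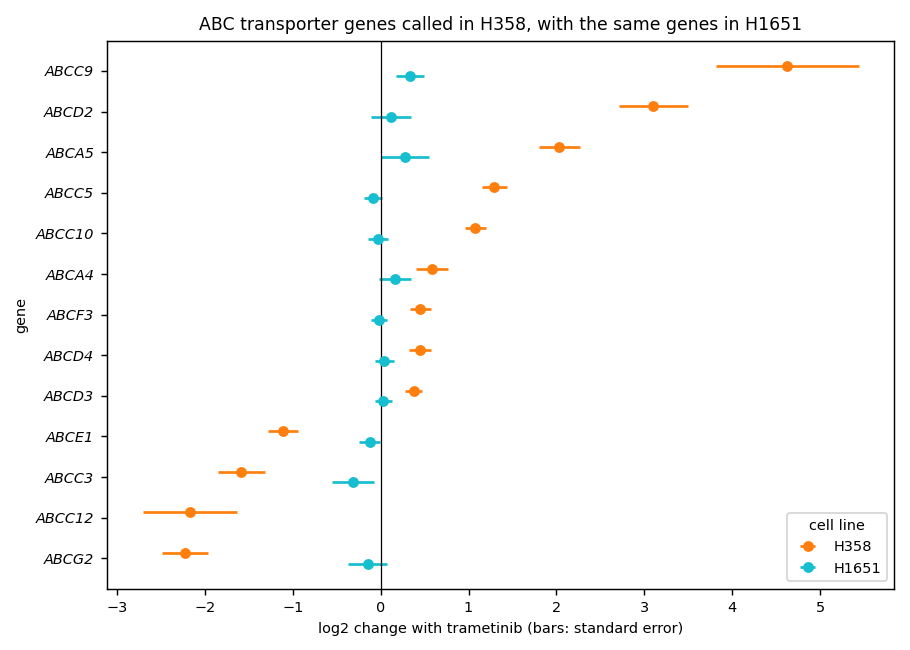
Log2 change with trametinib (x axis, bars are standard errors) of ABC transporter genes called in H358 (orange) and of the same genes where tested in H1651 (cyan). The H358 values run from -2.23 for ABCG2 to 4.63 for ABCC9, while those in H1651 run from -0.31 for ABCC3 to 0.33 for ABCC9 and ABCC12 was not tested there.

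Partner genes of the transporters were taken from lists chosen together with the members. On deletion in 3154, the xenobiotic and bile acid regulators had 2 of 6 tested genes lower at 2 weeks, among them Nr1i2, which encodes PXR (20.3 and 28.5 to 2.72 and 3.67 CPM, log2 change -2.93, edgeR adjusted p = 0.00795). Nr1i2 was also called lower at 48 h, with a log2 change of -2.82. Of the peroxisome partners, 5 of 7 tested were lower at 2 weeks, among them Acsl1 and Ehhadh (log2 changes -1.46 and -1.32, edgeR adjusted p = 0.01191 and 0.02023), while none of the 3 D members was called. Of the sterol-regulated LXR list, 1 of 10 was lower at 2 weeks, the phospholipid transfer protein gene Pltp (log2 change -1.92), and at 48 h 2 were higher and 2 lower, Nr1h3, which encodes LXR alpha, rising from a mean of 2.46 to 7.53 CPM (log2 change 1.61, edgeR adjusted p = 0.008461). Of the family members with other symbols, Tap2, a peptide transporter of antigen presentation, was higher at 48 h (log2 change 2.02, edgeR adjusted p = 0.00458), and 3 of 6 peptide loading genes were called higher and 1 lower. Of all genes 4.03% were called higher and 5.78% lower at 2 weeks, and 15.3% higher and 15.7% lower at 48 h.

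With HNF4A induction the drug and bile acid carriers had 3 of 9 tested genes higher, where 1.04% of all genes were, among them the uptake carrier SLCO2B1 (mean 0.402 to 8.06 CPM, log2 change 4.33, edgeR adjusted p = 0.00395) and the bile acid exporter subunit SLC51B (4.14 to 16.2 CPM, log2 change 1.97, edgeR adjusted p = 0.01856). With trametinib the bile acid receptor gene Nr1h4, which encodes FXR, was higher in 3311 (18.9 to 60.1 CPM, log2 change 1.67, edgeR adjusted p = 0.002846) and in 1027B (0.157 to 1.72 CPM, log2 change 3.43, edgeR adjusted p = 0.0113). Slc51a, the partner subunit of Slc51b, was higher in 3311 (0.0982 to 1.97 CPM, log2 change 4.28, edgeR adjusted p = 0.003758) and at least 7.74-fold higher in 1027B over vehicle libraries without a count (edgeR adjusted p = 0.007069). Slc25a37 (SLC25A37 in human), the mitochondrial iron importer that works beside Abcb10, fell with trametinib in 3311, 1027B and H358 (log2 changes -2.11, -0.99 and -1.05, edgeR adjusted p = 0.0005661, 0.002179 and 0.0005015), while Abcb10 was called in none of the 3. In H358 4 of 8 peroxisome partners were higher and 1 lower, where 23.5% and 23.2% of all genes were, with ACSL1 at a log2 change of 1.24 (edgeR adjusted p = 5.916e-05).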

How the data were processed

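The authors deposited raw gene counts, which per the file headers pair Ensembl identifiers with gene names and biotypes. Per the submitters' processing notes, cutadapt 3.5, STAR 2.7.6a and featureCounts 1.6.3 were used with mm10, mm39 and hg38, with no role or order given, so the mouse build of each table is not given in the sources used here. The libraries were made with a directional poly(A) kit, and the strand setting of the counting is not given in the sources used here. The 3311 table names its columns by treatment and replicate only, and they were taken as the 3311 samples.

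Each table was fitted on its own with edgeR 4.0.16 in R 4.3.3 (filterByExpr, TMM factors, quasi-likelihood F-test, Benjamini-Hochberg adjustment over all tested genes, adjusted p under 0.05), all groups of a table sharing 1 estimate of the spread. CPM use TMM-scaled library sizes. Differences between cultures or experiments were tested as interaction terms on joined tables. For called genes, folds against a group with no count are bounds over a floor of 3 counts per library. Against a group with some counts but at most 3 in each library they are ratios of summed counts with an exact (Clopper-Pearson) 95% interval. Both cover counting error only. The figures of log2 changes and the difference tests use fitted values for all genes, without such an interval. Counts of 2 libraries of a group differed by far more than sampling noise (chi-square per degree of freedom 5.40 to 79.5). Same-numbered 1027B libraries deviated together (correlations 0.243, 0.372 and 0.414 across genes), so that replicate numbers pair there.

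Named members are up to 6 called rises and 6 called falls per comparison, of at least 1 CPM and without overlap, and a fixed set of drug, bile and cholesterol exporters; other called members and the D members were chosen after their values were seen. Members and lists were chosen with earlier results of these data known. Each result was recomputed with DESeq2 1.42.0, with other size factors (RLE, upper quartile), with 2 other count filters, with a log2 limit of 1, with replicate blocks, on the 2 groups alone and without each library. The scripts were tested on simulated data. Exon lengths are from GENCODE M21 and promoter windows from RefSeq on GRCm38.p6, with 31 listed mouse members matched by symbol. Per-length levels use mouse annotation, and human lengths were not used here. Some items are not reported here.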

Additional observations from a re-analysis of the deposited data

Results flagged for a closer look

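The trametinib response differed between cultures for the 9 members below by the test of the difference itself (edgeR's quasi-likelihood test, Benjamini-Hochberg adjusted over all genes). Between 1027B and 3311 these were Abca7 (log2 difference -1.03) and Abcd4 (1.38), and the doses were 10 nM and 50 nM. There 8.82% of the tested members were called different, against 12.3% of all genes. Abcd4 was called lower in 3311 only. Between H358 and H1651 they were ABCC9 (4.30), ABCD2 (3.01), ABCA5 (1.78), ABCC5 (1.40), ABCC10 (1.13), ABCE1 (-0.96) and ABCG2 (-2.06), at the same dose. Here 15.2% of the tested members were called different, against 19.3% of all genes. ABCC9 had 28.3 and 35.6 CPM in untreated H1651, above every H358 library, where it stayed under 1 CPM. ABCD2 had 2.18 and 1.77 CPM in untreated H1651, against 0.155 and 0.239 CPM in untreated and 1.48 and 1.96 CPM in treated H358. Without H358 vehicle replicate 1 the difference for ABCC9 was 6.55. ABCA5 lost the call without H358 trametinib replicate 1 (adjusted p = 0.06440) or vehicle replicate 2 (0.07378), and ABCE1 without any 1 of 4 libraries (adjusted p from 0.05089 to 0.07364).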

How the results depend on the processing

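No called member changed sign under any alternative. Counts of members called moved by over 1.5 times as follows. With a replicate block, deletion at 2 weeks called 13, induction 12, MRTX1133 in 1027B 9, trametinib in H358 25 and in H1651 8, MRTX1133 against trametinib 5, 1027B minus 3311 8, H358 minus H1651 19 and 48 h minus 2 weeks 1. Outside 1027B the pairing is not established. The block also called more of all genes, 24.1% in place of 6.27% for MRTX1133 in 1027B. For MRTX1133 against trametinib it called 14.1% in place of 0.00%. Where no such share stands beside a count here, it is no result about the members. With DESeq2, MRTX1133 in 1027B called 7 and 1027B minus 3311 called 7. With at least 10 counts in every library these 2 called 2 and 5. With an absolute log2 change of at least 1, trametinib called 5 in 1027B and 9 in H358, and MRTX1133 in 1027B called 2. MRTX1133 in 3154 with 4OHT called 0 with upper-quartile factors and 9 in a fit of its 2 groups. The cause was not tested. Leaving out 1 library, which assumes that the lone sample left varies like the other groups, gave 0 to 9 calls for deletion at 2 weeks, 6 to 16 and 5 to 9 at 48 h without and with MRTX1133, 0 to 0 for MRTX1133 in 1027B and in 3154 with 4OHT, 0 to 1 for trametinib in H1651, 3 to 6 for 1027B minus 3311 and 0 to 1 for 48 h minus 2 weeks.

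Values that passed no test changed sign. Not all were near 0 in the main fit: Abcb4 in 1027B was -0.70 with trametinib and -1.32 with MRTX1133, and ABCG1 in H1651 was -0.89 with trametinib. With upper-quartile factors ABCB4 on induction was -0.0050, Abcb1a with MRTX1133 in ethanol-treated 3154 was 0.0295 and Abcc4 on deletion at 48 h was 0.0607; the last was 0.0000 with at least 10 counts and 0.0017 with the block. Leaving out 1 library gave these log2 ranges: Abcb11 at 2 weeks -0.74 to 0.24; on induction ABCB4 -0.14 to 0.16, ABCC1 -0.12 to 0.0858, ABCC3 -0.17 to 0.18, ABCG2 -0.0832 to 0.0649 and ABCC4 -0.33 to 0.13; in 3311 Abcd3 -0.0456 to 0.13 and Abcb1a -0.63 to 0.0612; in 1027B Abcb4 -1.52 to 1.87 with trametinib and -3.60 to 1.24 with MRTX1133, and Abcd3 -0.0009 to 0.19 with MRTX1133. In H1651 with trametinib they were ABCB4 -0.26 to 0.60, ABCB11 -1.24 to 0.20, ABCB1 -0.10 to 0.43, ABCC1 -0.38 to 0.0218, ABCG2 -0.42 to 0.10, ABCC4 -0.48 to 0.30, ABCG1 -1.52 to 0.46, ABCA1 -1.01 to 1.25 and HNF4A -0.53 to 0.29. With MRTX1133 in ethanol-treated 3154 they were Abcc3 -0.0522 to 0.20, Abcc1 -0.91 to 0.14, Abcb1b -0.14 to 0.0025, Abcc4 -0.77 to 0.11 and Abcb1a -0.24 to 0.17. With 4OHT Abcg1 had -0.73 to 0.0028, and on deletion at 48 h Abcc4 had -0.42 to 0.47 without and -0.34 to 0.0805 with MRTX1133.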
